A study of Mus musculus with 9 samples.

Results

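The comparison described here set the olfactory bulb of mice that inhaled 10% linalyl acetate against that of mice that inhaled the vehicle. Its members are all genes with a probe set of 1 gene symbol in the deposited signal table, 21367 of 22206 probe sets. They were read in the 3 arrays titled 10% and the 3 titled control, 6 of the 9 arrays of the series. The other 3 arrays, of 1% linalyl acetate, entered the fit and are given beside the results.

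All mice were male ICR mice, an outbred stock, 8 weeks old and housed singly. After 7 days of acclimation they were exposed in the whole body to a nebulised aerosol for 7 days. The vehicle aerosol held 1% Tween 80, a detergent. The other aerosols are labelled 1% or 10% linalyl acetate, and whether these held Tween 80 is not stated. A tail suspension test, which scores immobility of a mouse hung by the tail, followed 30 min of inhalation. The labels do not say whether a sample was 1 animal or a pool, so the p-values measure only the spread between these samples. The free-text descriptions of vehicle replicates 1 and 2 give saline treatments and that of vehicle replicate 3 an injection of lipopolysaccharide, at odds with the titles, which were used for the grouping. Results that rest on vehicle replicate 3 are given with and without it.

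Linalyl acetate is a fragrant ester of lavender oil. The olfactory bulb is the first relay of smell in the brain: axons of olfactory sensory neurons of the nose end there on mitral and tufted cells, whose output granule and periglomerular interneurons inhibit. Immediate early genes such as Fos, Arc, Egr1 and the Nr4a receptors are transcribed within minutes of neuronal firing, and in the bulb they mark interneurons and glomeruli driven by odour. Lipocalins such as the odorant-binding proteins carry small hydrophobic molecules in nasal mucus and are made by glands of the nose.

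The arrays carried the markers of the labelled tissue. The median level over all 9 arrays was 12.02 log2 units for 20 granule and periglomerular markers and 11.32 for 16 mitral and tufted markers, against 6.95 for all symbols. Median levels were 5.27 for 23 skeletal muscle markers, 4.67 for 17 blood markers and 5.71 for 27 secreted proteins of nasal tissue. Median signal per array was 6.92 to 6.98. Vehicle replicate 3, 1% replicate 2 and 10% replicate 2 stood above the other arrays of their group in 25 cortical markers, by list means of 0.66, 0.65 and 0.83 relative to the vehicle mean, and vehicle replicate 3 also in 20 striatal markers, at 1.03 against −0.52 and −0.50 in the other vehicle arrays. In bulk tissue, fewer cells of a type and less RNA per cell cannot be told apart.

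Most genes differed little between 10% linalyl acetate and vehicle. The median difference was 0.01 on the log2 scale, the 1st and 99th percentiles were −0.60 and 0.59, and 58 genes differed by more than 1 log2 unit. In limma, 0 of 21367 genes (0.0%) passed a Benjamini-Hochberg adjusted p of 0.05, with a lowest adjusted p of 0.998, so every difference below is a measured value that missed the adjustment over all genes. Without vehicle replicate 3 the fit took 12 genes, all of them early activity genes with a lower mean in 10%, and without 10% replicate 1 it took Obp2b and Zfp125, both higher. At an unadjusted p of 0.05 the fit took 3.78% of genes, 2.06% higher and 1.71% lower, fewer than the 1068 that no difference would give. The criterion stated by the authors, that p with a fold over 2, took 42 genes (0.197%), or 67 without vehicle replicate 3 and 81 without 10% replicate 3. Without that last array 1530 genes had an unadjusted p under 0.05 in place of 807. The 3 arrays of 10% lay all above or all below the 3 vehicle arrays in 1595 genes (7.46%), with 4.1% higher and 3.36% lower. The smallest p that 3 arrays against 3 allow in an exact permutation test is 0.1. That is also the share of genes that no difference would put apart, and the share found was smaller. Both conditions, groups apart and an unadjusted p under 0.05, were met by 2.58% of genes, 1.46% higher and 1.13% lower, and these genes supplied most of the names below. Means were higher in 10% in 51.1% of genes and lower in 48.2%, the background for the counts of each list.

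Large departures were not shared by the 3 arrays of 10%. Replicate 1 lay more than 1 log2 unit below every vehicle array in 89 genes and above in 47. The corresponding counts were 23 and 50 in replicate 2, and 7 and 39 in replicate 3. In 0 genes did all 3 arrays of 10% lie more than 1 log2 unit beyond the vehicle range on the same side. A gap of at least 0.5 log2 units between the groups was found in 9 genes. It was seen above the vehicle arrays in 3 of them, Ifit3b, Postn and 1 of the 2 probe sets of Uck2, and below in 6, Nr4a3, Arc, Nr4a2, Coq10b, Pot1a and Neurod4. Uck2, a uridine-cytidine kinase, and Neurod4, a neuronal transcription factor, were named after their values were seen. The Uck2 probe set read 5.47, 5.53 and 5.73 log2 units in vehicle and 6.60, 6.42 and 6.30 in 10%, whereas the groups overlapped in its other probe set. Neurod4 read 4.47, 4.32 and 4.35 in vehicle against 3.73, 3.78 and 3.59. Array medians of the negative control probe sets lay between 6.87 and 7.12, so the Neurod4 values and those of Uck2 lay below them.

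**Figure D1:**
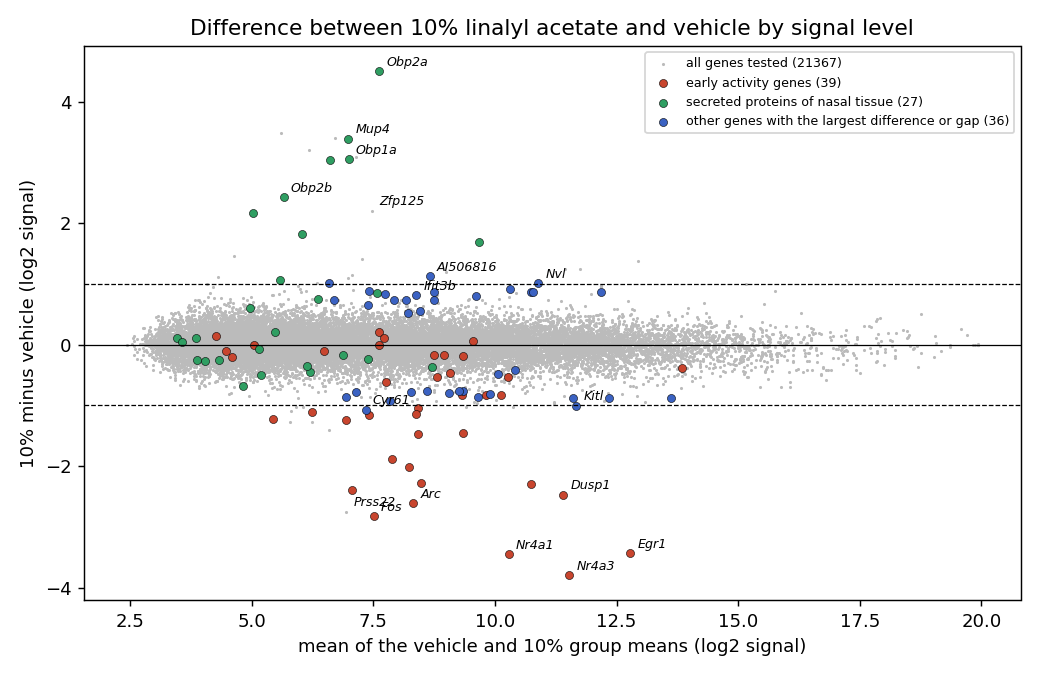
Difference of the group means (10% linalyl acetate minus vehicle, log2 signal, vertical axis) against the mean level of the 2 groups (log2 signal, horizontal axis) for the 21367 genes, with dashed lines at a difference of 1 in either direction. Below the lower line lie mostly early activity genes (red), the highest point is the nasal lipocalin Obp2a at 4.51 (nasal proteins in green), and the other genes of the largest difference or gap (blue) lie close to the lines.

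The gene with the widest separation relative to its spread was Ifit3b, which codes for an interferon-induced protein with tetratricopeptide repeats. It read 7.89, 7.97 and 8.08 log2 units in vehicle, 8.35, 8.53 and 8.27 in 1% linalyl acetate and 8.78, 8.76 and 8.84 in 10%. All arrays of 10% lay above all arrays of 1%, and these above all vehicle arrays. The difference of 10% from vehicle was 0.81 ± 0.15 (SE) on the log2 scale, with an unadjusted p of 0.000219 in limma, and it stayed between 0.77 and 0.86 when any 1 array was left out. The near-identical neighbour Ifit3 may share probes with it. Ifit3 read 8.32, 7.79 and 8.48 in vehicle and 8.40, 8.61 and 9.51 in 10%, which overlap. The other interferon stimulated genes did not share the difference: of 35 listed, 17 had a higher and 17 a lower mean in 10%, the list median was 0.00, and only Ifit3b (higher) and Ifi35 (lower, by −0.58) had an unadjusted p under 0.05. The Ifi35 value lost that p without vehicle replicate 1 (−0.42) or 2 (−0.57) and without 10% replicate 2 (−0.55) or 3 (−0.42).

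The Ifit3b promoter is shown because that gene led the higher genes. Promoter windows were those of RefSeq on build GRCm38.p6, 250 bases before to 50 after each gene's start. The interferon element, GAAA repeated after 2 free bases, was searched on both strands, and capitals mark its matches, here read on the opposite strand. The stretch is chr19:34607753-34607828 on the plus strand, and the matches start 188 and 154 bases before the gene start.
Ifit3b: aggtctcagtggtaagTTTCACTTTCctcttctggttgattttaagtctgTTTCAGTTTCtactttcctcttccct
The element was found in 14 of 24 promoters of the interferon list (58.3%) and in 3.84% of 16216 promoters. The 14 holders had 8 higher and 5 lower means in 10% and a median difference of 0.12. A match of letters is a description of the window and shows no binding.

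Postn, which codes for the secreted matrix protein periostin, had the next widest gap among genes at or above the median level of all genes. It read 7.28, 7.16 and 6.49 in vehicle, 6.84, 7.14 and 7.28 in 1% and 7.78, 7.81 and 7.98 in 10%. The 1% arrays overlapped the vehicle arrays and the 10% arrays lay above both. Its difference from vehicle was 0.88 ± 0.22, unadjusted p = 0.00202. Cbx1, the heterochromatin protein HP1 beta, read 7.89, 7.98 and 8.00 in vehicle, 8.13, 8.37 and 8.43 in 1% and 8.54, 8.45 and 8.47 in 10%, a difference of 0.53 ± 0.15. The 3 arrays of 10% lay above every other array.

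For 3 other genes with a wide gap the 1% arrays were as far from vehicle as the 10% arrays. Deaf1, a DNA-binding transcription factor, read 8.41, 8.60 and 8.15 in vehicle, 9.17, 9.15 and 9.02 in 1% and 9.12, 9.23 and 9.03 in 10%. Trappc11, a subunit of the TRAPP complex that tethers transport vesicles, read 10.40, 10.55 and 9.98, then 11.47, 11.04 and 11.29, then 11.42, 11.17 and 10.97. Hfe, a relative of major histocompatibility class I proteins that regulates iron uptake, read 6.26, 6.36 and 6.36, then 7.01, 7.00 and 6.96, then 6.83, 7.44 and 6.94. The Hfe values of vehicle and of 10% replicate 1 lay below the negative control medians. In these 3 genes both exposed groups lay above every vehicle array and overlapped each other, with differences of 10% from vehicle of 0.74 ± 0.17 for Deaf1, 0.88 ± 0.20 for Trappc11 and 0.74 ± 0.18 for Hfe. Kif13a, a kinesin motor of endosomes, differed by 0.65 ± 0.17 and Pdpr, a regulatory subunit of the pyruvate dehydrogenase phosphatase, by 0.56 ± 0.18. Each of these differences kept an unadjusted p under 0.05 without any 1 array.

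Hfe lies next to the histone H4 gene Hist1h4c in the RefSeq annotation, with 0 genes between them on chromosome 13. Hist1h4c read 10.58, 10.26 and 10.21 in vehicle, 11.64, 13.06 and 11.94 in 1% and 10.77, 11.39 and 11.50 in 10%. It too stood above vehicle in every exposed array, with the highest values in 1%, and 10% exceeded vehicle by 0.87 ± 0.33. That difference lost its unadjusted p under 0.05 without vehicle replicate 2 (0.83) or 3 (0.80) and without 10% replicate 2 (0.78) or 3 (0.73). Histone H4 genes are near copies of each other, so how probes divide between them is uncertain, and Hist1h4h and Hist1h4d differed by 0.59 and −0.95 with overlapping groups.

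**Figure D2:**
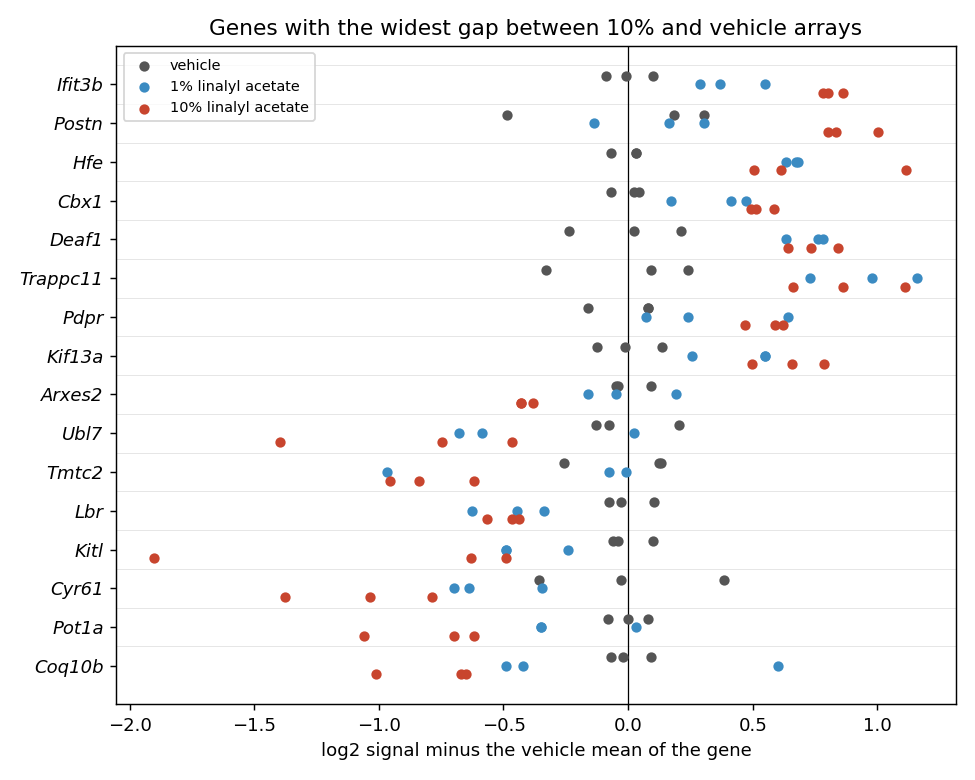
Log2 signal minus the vehicle mean of each gene (horizontal axis) in the 9 arrays for the 16 genes outside the early activity list with the widest gap between 10% and vehicle, 8 in each direction, 1 point per array. The red points of 10% lie beyond the grey points of vehicle in every gene shown, since that chose them, while the blue points of 1% lie with the red ones in Deaf1, Trappc11, Hfe and Lbr and with the grey ones in Postn and Arxes2.

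Among the larger differences upward, 2 genes are known for their response to other signals. Fkbp5, a co-chaperone that dampens the glucocorticoid receptor and is itself induced by glucocorticoids, read 11.65, 11.29 and 12.28 in vehicle, 12.40, 12.28 and 12.65 in 1% and 12.72, 12.79 and 12.33 in 10%. The 10% arrays lay above vehicle by a margin of less than 0.1, and the difference was 0.87 ± 0.25. Cirbp, a cold-inducible RNA-binding protein, read 10.16, 10.24 and 9.19 in vehicle, 10.40, 9.75 and 10.66 in 1% and 11.03, 11.00 and 10.30 in 10%, a difference of 0.91 ± 0.33. It fell short of an unadjusted p of 0.05 without vehicle replicate 3 (0.58), without 10% replicate 1 (0.79) or 2 (0.80), and without the 3 arrays of highest cortical signal (0.46). Rbm3, the other well known cold-inducible RNA-binding protein, was looked up after Cirbp was seen. It read 13.63, 13.88 and 13.49 in vehicle, 13.91, 13.10 and 14.34 in 1% and 14.53, 14.38 and 13.89 in 10%, a difference of 0.60 ± 0.29 with an unadjusted p of 0.063. The groups were only just separated, by 13.88 in vehicle replicate 2 against 13.89 in 10% replicate 3. The difference was 0.47 without 10% replicate 1 and 0.79 without 10% replicate 3, the only array whose removal took that p under 0.05.

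The rest of the larger differences upward came from genes of unrelated function. Nvl, an ATPase needed to build the large ribosomal subunit, read 10.37, 11.03 and 9.77 in vehicle, 9.95, 10.87 and 10.17 in 1% and 11.88, 11.26 and 11.06 in 10%. Its difference of 1.01 ± 0.34 was 0.70 without vehicle replicate 3 and 0.77 without 10% replicate 1, no longer with an unadjusted p under 0.05. Ramp2, the partner protein that turns the calcitonin-like receptor into an adrenomedullin receptor, read 6.73, 7.62 and 7.61 in vehicle, 7.66, 7.93 and 7.39 in 1% and 8.23, 7.91 and 8.32 in 10%. The groups of 10% and vehicle did not overlap, and the difference of 0.83 ± 0.25 became 0.54 without vehicle replicate 1. Eif2b2, a subunit of the exchange factor eIF2B of translation initiation, differed by 0.74 ± 0.21.

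Single arrays set part of several values. Perm1, a regulator of mitochondrial genes in muscle, read 6.32, 5.83 and 6.09 in vehicle and 6.85, 6.58 and 7.87 in 10%, and its difference of 1.02 ± 0.29 became 0.63 without 10% replicate 3. All of these Perm1 values but that of 10% replicate 3 lay below the negative control medians. AI506816, annotated as a long non-coding RNA, read 8.64, 7.30 and 8.36 in vehicle, 9.81, 9.47 and 9.53 in 1% and 8.91, 9.51 and 9.26 in 10%, and its 1.13 ± 0.31 became 0.73 without vehicle replicate 2. Morn2 differed by 0.87 ± 0.31, or 0.60 and no longer an unadjusted p under 0.05 without vehicle replicate 3. Eid1, an inhibitor of the coactivators p300 and CBP, differed by 0.80 ± 0.32, and lost that p without vehicle replicate 1 (0.65), without 10% replicate 1 (0.68) or 2 (0.62), and without the arrays of highest cortical signal (0.69).

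Of the genes with a lower mean in 10% outside the early activity list, Cyr61 had the largest difference among those whose groups were apart and whose level was at least the median of all genes. Cyr61 codes for a secreted matricellular protein and is known to respond within an hour to serum and to the coactivator YAP. It read 7.85, 8.26 and 7.52 in vehicle, 7.24, 7.18 and 7.53 in 1% and 6.84, 7.09 and 6.50 in 10%. The 10% arrays lay below all others, and the difference was −1.07 ± 0.22, a 2.10-fold lower signal, with an unadjusted p of 0.000569 and a range of −1.25 to −0.88 with 1 array left out. Of 20 serum and YAP responsive genes, 8 had a higher and 12 a lower mean, and only Cyr61 and Edn1, the endothelin precursor at −0.38, had an unadjusted p under 0.05. Edn1 lost it without vehicle replicate 1 (−0.34) or 2 (−0.38), without 10% replicate 2 (−0.32), and when the arrays of highest cortical signal were left out (−0.36). The list median of −0.09 was −0.18 without vehicle replicate 3, −0.04 without vehicle replicate 2 and −0.04 without 10% replicate 3.

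Genes of telomeres, mitochondria and growth factor signalling followed. Pot1a, which caps telomeres as part of shelterin, read 9.46, 9.54 and 9.38 in vehicle, 9.49, 9.11 and 9.11 in 1% and 8.40, 8.76 and 8.84 in 10%. It was lower in 10% than in every other array, by −0.79 ± 0.18 against vehicle with an unadjusted p of 0.00103. Coq10b, which binds ubiquinone in mitochondria, read 8.65, 8.76 and 8.60 in vehicle, 8.25, 9.27 and 8.18 in 1% and 7.66, 8.02 and 8.00 in 10%. Its difference was −0.78 ± 0.26, and without 10% replicate 1 it was −0.66 and lost its unadjusted p under 0.05. Kitl, the ligand of the receptor Kit, read 12.11, 12.13 and 12.27 in vehicle, 11.68, 11.93 and 11.68 in 1% and 10.27, 11.54 and 11.68 in 10%. The vehicle arrays lay above all exposed arrays, but 10% replicate 1 carried much of the difference of −1.01 ± 0.31, which was −0.56 without it.

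Both Mitf and Syt10 are known from projection neurons of the bulb. Mitf, a transcription factor of mitral and tufted cells, read 9.73, 9.99 and 9.43 in vehicle, 9.58, 9.05 and 9.32 in 1% and 9.0, 8.69 and 9.18 in 10%, a difference of −0.76 ± 0.21 that was between −0.90 and −0.62 with any 1 array left out. Syt10, a synaptotagmin that controls release of insulin-like growth factor 1 in the bulb, read 13.97, 14.26 and 13.95, then 13.99, 12.87 and 13.67, then 13.24, 12.48 and 13.84. Its difference of −0.87 ± 0.34 lost its unadjusted p under 0.05 without vehicle replicate 2 (−0.77), without 10% replicate 1 (−0.90) or 2 (−0.52), and without the arrays of highest cortical signal (−0.58). The 16 mitral and tufted markers had 7 higher and 9 lower means in 10%, with 0 at an unadjusted p under 0.05.

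Other lower genes lay at −0.92 to −0.41. Socs4, a suppressor of cytokine signalling, read 8.91, 8.03 and 7.99 in vehicle and 6.82, 7.64 and 7.70 in 10%, a difference of −0.92 ± 0.29. Cp, the copper ferroxidase ceruloplasmin, and Slc4a5, a sodium bicarbonate cotransporter of choroid plexus, both differed by −0.86, with SEs of 0.30 and 0.25. Without vehicle replicate 1 the Cp value was −0.58, without 10% replicate 2 it was −0.59 and without the arrays of highest cortical signal −0.69, each with an unadjusted p above 0.05. Ubl7, a ubiquitin-like protein, differed by −0.87 ± 0.26, Tmtc2, a protein of the endoplasmic reticulum, by −0.80 ± 0.25, and Fbxo33, an F-box protein, by −0.76 ± 0.23. AI464131, named Myorg in RefSeq, had 8.93, 9.13 and 8.86 in vehicle, 8.88, 9.26 and 8.95 in 1% and 7.84, 8.19 and 8.62 in 10%, so that 1% lay with vehicle.

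The smallest spread among the lower genes belonged to Arxes2 and Lbr. Arxes2 read 10.57, 10.70 and 10.56 in vehicle, 10.80, 10.45 and 10.56 in 1% and 10.18, 10.23 and 10.18 in 10%. Its 3 arrays of 10% lay within 0.05 of each other and below all other arrays, with a difference of −0.41 ± 0.16 that lost its unadjusted p under 0.05 without vehicle replicate 2 (−0.37) or when the arrays of highest cortical signal were left out (−0.46). Its near copy Arxes1 differed by −0.52 ± 0.23 with overlapping groups, and by −0.37 without vehicle replicate 1. Lbr, the lamin B receptor and a sterol reductase of the nuclear envelope, read 10.29, 10.24 and 10.42, then 9.87, 9.69 and 9.98, then 9.88, 9.75 and 9.85. All exposed arrays lay below all vehicle arrays, and the difference of −0.49 ± 0.15 lost that p only without the arrays of highest cortical signal (−0.40).

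The early activity genes formed the group with the largest differences. Of 39 genes, 35 had a lower mean in 10% than in vehicle, 23 with an unadjusted p under 0.05 against 1.71% of all genes, and 11 with groups apart, each gene read by its brightest probe set. The list median was −0.83 against 0.01 for all genes. The list mean of each array, relative to the vehicle mean, was 0.32, 0.55 and −0.87 in vehicle, −0.94, −0.55 and −1.18 in 1% and −1.38, −0.92 and −1.14 in 10%. Vehicle replicate 3 was thus as low as an exposed array, and without it the median difference was −1.33. The 4 members with a higher mean were Bdnf, Ier5, Inhba and Maff.

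The nuclear receptors Nr4a3 and Nr4a1 and the zinc finger factor Egr1 led the list. Nr4a3 read 13.54, 14.70 and 12.02 in vehicle, 10.10, 11.68 and 10.31 in 1% and 8.31, 11.18 and 9.39 in 10%, a difference of −3.79 ± 0.75. Egr1 read 15.33, 15.67 and 12.51, then 12.43, 13.67 and 11.60, then 10.12, 12.08 and 11.01, a difference of −3.43 ± 0.79. In both genes 10% lay below every vehicle array, including the low vehicle replicate 3. Nr4a1 read 13.07, 13.88 and 9.08 in vehicle and 8.44, 8.96 and 8.29 in 10%, a difference of −3.45 ± 0.98, with vehicle replicate 3 only 0.12 above the highest 10% array.

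Arc and Fos stood next. Arc, a synaptic protein that packages its own RNA, read 10.53, 10.40 and 7.93 in vehicle, 7.95, 8.85 and 7.56 in 1% and 7.03, 7.19 and 6.82 in 10%, a difference of −2.61 ± 0.57. Fos, a subunit of the AP-1 factor, read 10.81, 9.87 and 6.08 in vehicle, 6.62, 6.66 and 5.95 in 1% and 5.85, 6.23 and 6.21 in 10%. Its 10% arrays enclosed vehicle replicate 3, and its difference of −2.82 ± 0.89 was −4.24 without that array. The exposed arrays of Fos lay below the negative control medians, where differences between 1% and 10% cannot be read.

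A scan of 257 symbol families with at least 10 genes put lowest the dual-specificity phosphatases, which remove phosphates from mitogen-activated protein kinases and other targets. Of 24 Dusp genes, 20 had a lower mean in 10%, and the median was −0.21 against 0.01 for all genes. An unadjusted p under 0.05 was found in 4 of the lower ones against 1.71% of all genes. Groups were apart in 6 of them against 3.36%. Of these 6, Dusp2, Dusp9, Dusp23 and Dusp27 read below the negative control medians. The gaps of Dusp2, Dusp11 and Dusp23 were only 0.02, 0.03 and 0.01. The family mean per array was 0.07, 0.16 and −0.23 in vehicle, −0.09, 0.01 and −0.27 in 1% and −0.43, −0.27 and −0.26 in 10%. The 10% arrays lay below all vehicle arrays, replicates 2 and 3 only just below vehicle replicate 3. Leaving out any 1 array or changing any setting kept the median between −0.27 and −0.15. Of the members, Dusp1, Dusp5 and Dusp6 are also on the early activity list, and the other 21 had 17 lower means, 1 unadjusted p under 0.05, a range of −0.88 to 0.33 and a median of −0.13.

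Dusp14 carried that single p. It read 11.89, 12.62 and 11.59 in vehicle, 11.33, 12.01 and 10.97 in 1% and 10.68, 11.53 and 11.26 in 10%, a difference of −0.88 ± 0.33 that lost its unadjusted p under 0.05 without vehicle replicate 2 (−0.58) and without 10% replicate 1 (−0.64). Dusp1, the first phosphatase induced by growth signals and stress, read 13.97, 13.95 and 9.99 in vehicle, 10.79, 11.41 and 9.81 in 1% and 9.28, 10.34 and 10.87 in 10%. Vehicle replicate 3 lay among the 10% arrays, and the difference of −2.47 ± 0.89 was −3.80 without it. It lost its unadjusted p under 0.05 without vehicle replicate 1 (−1.81) or 2 (−1.82) and without 10% replicate 1 (−2.03). Dusp6, which acts on the kinase ERK, read 9.56, 10.12 and 9.54, then 9.18, 9.49 and 8.63, then 8.39, 8.82 and 9.54.

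The Dusp1 promoter is given as the one with the largest difference in the family. The cyclic AMP response element, bound by CREB after neuronal firing, was searched as TGACGTCA on both strands, and capitals mark it. The stretch is chr17:26508592-26508631 on the minus strand, and the match starts 143 bases before the gene start.
Dusp1: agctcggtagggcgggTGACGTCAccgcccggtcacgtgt
The element was found in 2 of 18 Dusp promoters (11.1%), those of Dusp1 and Dusp8, in 3 of 30 promoters of the early list (10.0%) and in 2.61% of all promoters.

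**Figure D3:**
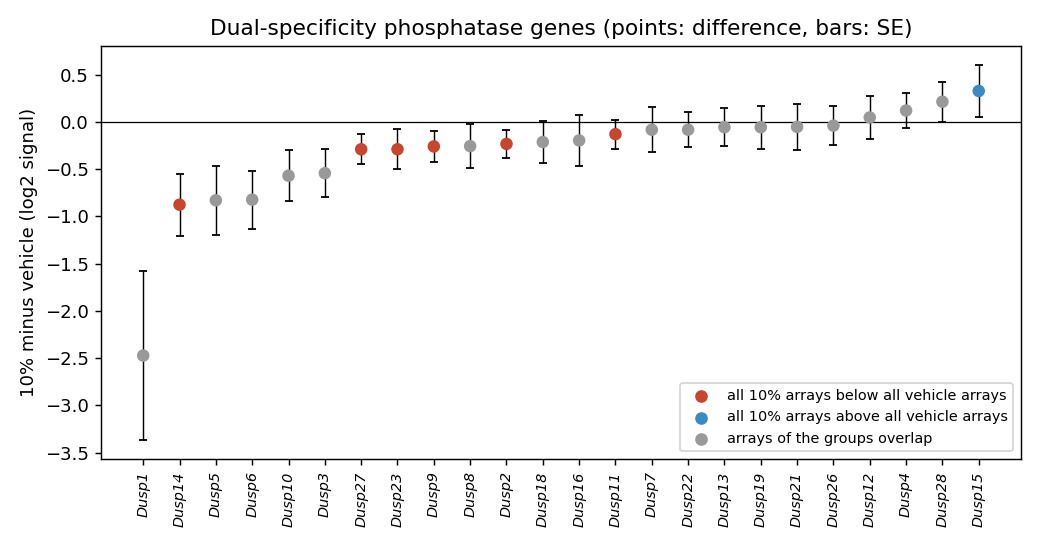
Difference of the group means (10% minus vehicle, log2 signal, vertical axis) for the 24 dual-specificity phosphatase genes, ordered by difference, with bars of 1 SE from limma and colours for whether the arrays of the groups overlap. Dusp1 lies far below the rest at −2.47, 20 points lie below 0, and Dusp15 is the one gene whose 10% arrays all lay above the vehicle arrays.

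No other family had a median as far from 0 on the lower side. The next were the Integrator complex subunits (Ints, −0.18, 3 higher and 8 lower of 11), the Ras association domain genes (Rassf, −0.18), the exocrine gland secreted peptides (Esp, −0.17) and the Krüppel-like factors (Klf, −0.16, 5 higher and 12 lower of 17). These medians rested on single arrays. Ints stood at −0.09 without vehicle replicate 1, Rassf at −0.07 and −0.06 without vehicle replicate 1 and 2 and at −0.09 without 10% replicate 3, and Esp at −0.03 without 10% replicate 3. The Klf median was 0.01 without 10% replicate 1 and −0.07 without vehicle replicate 2. On the higher side stood the immunoglobulin superfamily genes (Igsf, 0.29, 8 higher and 3 lower of 11), the proteasome beta subunits (Psmb, 0.18, 7 higher and 3 lower), and Stard, Parp and Defa at 0.15. The Igsf median was 0.13 without 10% replicate 2, 0.17 without vehicle replicate 2 and 0.19 without vehicle replicate 3. The Psmb median was −0.01 without vehicle replicate 3 and 0.05 without 10% replicate 1, and that of Defa was 0.10 without 10% replicate 3 and 0.24 without 10% replicate 2. All Esp and Defa genes read below the negative control medians in vehicle and 10%, where such small medians cannot be read. Defa3 and Defa17 had identical values in every array. Of the poly(ADP-ribose) polymerase genes, 10 of 11 had a higher mean, and their median was 0.24 without 10% replicate 2.

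Chaperone genes mostly had lower means in 10%, with differences under 1 log2 unit. Of 22 cytosolic heat shock genes, 4 had a higher and 17 a lower mean, 0 had an unadjusted p under 0.05 against 3.78% of all genes, and the median was −0.27. Of 23 genes of the unfolded protein response, by which the endoplasmic reticulum raises its folding capacity, 3 had a higher and 19 a lower mean, 2 with that p, and the median was −0.20. The shift differed between arrays. Relative to the vehicle mean the heat shock list stood at −0.53, −0.21 and −0.08 in the 3 arrays of 10% and at −0.18, 0.01 and 0.17 in vehicle. The unfolded protein response list stood at −0.38, −0.23 and −0.04 in 10% and at −0.11, −0.05 and 0.16 in vehicle. In both lists 10% replicate 3 lay within the vehicle range, and in the heat shock list replicate 2 lay only just below it. Without 10% replicate 1 the heat shock median was −0.16 and that of the unfolded protein response −0.10. The heat shock median was −0.41 without vehicle replicate 1 and −0.18 without vehicle replicate 3, and the unfolded protein response median was −0.07 without the arrays of highest cortical signal.

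Xbp1, the transcription factor whose RNA is spliced during that response, read 13.09, 13.17 and 13.76 in vehicle, 12.96, 13.71 and 12.92 in 1% and 12.05, 12.28 and 13.15 in 10%. Calr, a calcium-binding chaperone, read 16.17, 16.28 and 16.67, then 16.20, 16.30 and 16.04, then 15.22, 15.66 and 16.42. Hspa5, the chaperone BiP, read 15.47, 15.75 and 16.20, then 15.15, 16.18 and 15.50, then 14.63, 14.87 and 15.83. All 3 were lowest in 10% replicates 1 and 2, and replicate 3 lay among the vehicle arrays. Their differences were −0.85 ± 0.31 for Xbp1, −0.61 ± 0.27 for Calr and −0.70 ± 0.34 for Hspa5, of which the first 2 had an unadjusted p under 0.05. The Xbp1 p was lost without vehicle replicate 3 (−0.64) and without 10% replicate 1 (−0.63) or 2 (−0.74), and, with the arrays of highest cortical signal left out, it was −0.53. The Calr p was lost without vehicle replicate 2 (−0.65) or 3 (−0.46), without 10% replicate 1 (−0.33) or 2 (−0.55), and without the arrays of highest cortical signal (−0.40). Without 10% replicate 3 the values were −0.93 for Calr and −1.06 for Hspa5, and without 10% replicate 1 Hspa5 was −0.46. Dnajb1, a cytosolic co-chaperone, read 10.21, 11.17 and 10.06 in vehicle and 8.99, 10.01 and 9.73 in 10%, a difference of −0.90 ± 0.42 with groups just apart. It was −0.56 without vehicle replicate 2 and −0.61 without 10% replicate 1, and its unadjusted p of 0.0537 went under 0.05 without vehicle replicate 3 (−1.11) or 10% replicate 2 (−1.12).

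Promoters of 4 genes of the unfolded protein response are shown because they share the endoplasmic reticulum stress element, CCAAT and CCACG with 9 free bases between them, searched on both strands and marked by capitals. The stretches are chr2:34772013-34772055 (plus strand), chr8:84847063-84847105 (minus), chr12:17266479-17266521 (plus) and chr14:118937815-118937857 (plus) of GRCm38.p6, in the order printed, and the Calr match reads on the opposite strand.
Hspa5: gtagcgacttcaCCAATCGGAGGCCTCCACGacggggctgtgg
Calr: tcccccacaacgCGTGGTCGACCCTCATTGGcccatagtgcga
Pdia6: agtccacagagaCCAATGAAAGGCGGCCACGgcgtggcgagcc
Dnajc3: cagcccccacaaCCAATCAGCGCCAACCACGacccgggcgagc
The matches start 65, 162, 98 and 105 bases before the gene starts. The element was found in 8 of 21 promoters of the list (38.1%) and in 28 of 16216 promoters (0.173%). Of the 8 genes that hold it, 7 had a lower mean in 10% and Canx stood at 0.01. Pdia6, a disulphide isomerase, and Dnajc3, a co-chaperone that inhibits the kinase PERK, both differed by −0.20. The heat shock element, GAA, TTC and GAA with 2 free bases between neighbours, searched on both strands, was found in 4 of 17 promoters of the heat shock list (23.5%) and in 0.617% of all promoters.

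Microglial and vascular markers followed single arrays. Of 23 microglia markers, 4 had a higher and 19 a lower mean in 10%, with a median of −0.21, but by array of 10% the list mean was −0.57, −0.10 and 0.12, and its median was 0.04 without replicate 1. Of 31 endothelial and mural markers, 8 had a higher and 23 a lower mean, at −0.36, −0.19 and 0.14 by array, and the median of −0.14 was −0.04 without replicate 1, −0.25 without replicate 3 and −0.07 without vehicle replicate 2. Within that list Higd1b, a gene of pericytes, differed the other way. It read 4.78, 5.13 and 5.19 in vehicle, 5.15, 5.37 and 5.49 in 1% and 5.99, 5.66 and 5.89 in 10%, all below the negative control medians, a difference of 0.81 ± 0.18 with an unadjusted p of 0.000835 that held without any 1 array. Eng, the coreceptor endoglin of endothelium, differed by −0.89 ± 0.32 with overlapping groups and lost its unadjusted p under 0.05 without vehicle replicate 2 (−0.68) or 3 (−0.81), without 10% replicate 1 (−0.62), and without the arrays of highest cortical signal (−0.86). Pdgfrb, the receptor that marks mural cells, differed by −0.46, or −0.35 and without that p when 10% replicate 1 was left out.

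Myelin markers had 5 higher and 21 lower means of 26, with a median of −0.13 and 0 unadjusted p under 0.05. That median was −0.03 without 10% replicate 1, −0.29 without 10% replicate 2, −0.35 without vehicle replicate 1 and −0.07 without vehicle replicate 3. Cholesterol synthesis genes had 6 higher and 18 lower means of 24, also with a median near −0.13, or −0.19 without 10% replicate 2. The lanosterol demethylase Cyp51 at −0.45 was the only one with an unadjusted p under 0.05, which it lost without vehicle replicate 2 (−0.35) or 3 (−0.43), without 10% replicate 1 (−0.32) or 2 (−0.42), and without the arrays of highest cortical signal (−0.40). Of 20 striatal markers 16 had a lower mean, with a median of −0.28 that was 0.10 without vehicle replicate 3 and −0.50 without vehicle replicate 2. Of 25 cortical markers 17 had a higher mean, with a median of 0.13 that lay between −0.20 without 10% replicate 2 and 0.37 without vehicle replicate 3. It was 0.26 without 10% replicate 3, and −0.08 and 0.01 without vehicle replicate 1 and 2. With the mean of the cortical markers as a covariate the striatal median was −0.32, and it was 0.05 without the arrays of highest cortical signal. With that covariate 0 genes passed the adjustment and 50 the authors' criterion. The part that the amount of neighbouring tissue in single arrays had in other results was not tested beyond that covariate and leaving those arrays out.

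Transmission genes gave few differences, in both directions. Of 54 receptor subunits for GABA, glycine and glutamate, 23 had a higher and 31 a lower mean, with 2 unadjusted p under 0.05 each way (7.41%). Of 95 potassium channel genes 58 were higher and 36 lower, with 2 and 3 (5.26%), against 3.79% of all symbols. Sv2c, a synaptic vesicle protein, read 10.22, 10.37 and 9.91 in vehicle, 10.50, 10.27 and 10.52 in 1% and 10.59, 10.79 and 11.00 in 10%. The 10% arrays lay above all others, and the difference of 0.63 ± 0.18, unadjusted p = 0.00554, held without any 1 array. Napa, the adaptor alpha-SNAP that recycles SNARE complexes, read 13.76, 13.56 and 13.47 in vehicle, 13.34, 13.25 and 13.15 in 1% and 12.80, 13.27 and 13.25 in 10%. Every exposed array was lower than every vehicle array, and the difference of −0.49 ± 0.18 lost its unadjusted p under 0.05 without vehicle replicate 1 (−0.41) and without 10% replicate 1 (−0.34).

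Neuropeptide genes of bulb neurons had 5 higher and 18 lower means of 23, with a median of −0.28 that was −0.16 without either vehicle replicate 3 or 10% replicate 1. The list mean was −0.24, −0.06 and 0.30 in vehicle and −0.43, −0.11 and −0.17 in 10%. Replicates 2 and 3 of 10% thus lay within the vehicle range. Tac2, the precursor of neurokinin B, read 7.38, 7.03 and 6.76 in vehicle, 7.38, 7.33 and 6.82 in 1% and 6.37, 6.33 and 6.60 in 10%. It was lowest in all 3 arrays of 10%, by −0.62 ± 0.21, or −0.46 without vehicle replicate 1 and then without an unadjusted p under 0.05. The 10% values of Tac2 lay below the negative control medians. Among 41 monoamine and acetylcholine receptors, 21 had a higher and 20 a lower mean, and the serotonin receptor Htr1d read 7.23, 7.06 and 7.57 in vehicle and 6.44, 6.99 and 6.57 in 10%. Its difference of −0.62 ± 0.21 lost its unadjusted p under 0.05 without vehicle replicate 3 (−0.48) and without 10% replicate 1 (−0.51). In 10% replicates 1 and 3 Htr1d lay below the negative control medians. Slc6a3, the dopamine transporter, read 6.22, 6.43 and 6.40 in vehicle and 5.83, 5.42 and 6.06 in 10%, below the negative control medians. Its difference of −0.58 ± 0.20 lost that p without 10% replicate 2 (−0.41) and without the arrays of highest cortical signal (−0.38). Of 16 markers of dopaminergic periglomerular cells, Slc6a3 among them, 7 had a higher and 9 a lower mean, with a median of −0.08. Another of them, Aldh1a1, was higher by 0.66 with an unadjusted p under 0.05. It lost that p without vehicle replicate 3 (0.28), without 10% replicate 2 (0.55) or 3 (0.69), and without the arrays of highest cortical signal (0.17).

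Genes of translation and chromatin leaned upward by small amounts. Of 69 cytosolic ribosomal protein genes, 55 had a higher mean in 10%, with a median of 0.12 against 0.01 for all genes. Only Rpl11, at 0.39 ± 0.17, had an unadjusted p under 0.05, which it lost without vehicle replicate 1 (0.36) or 3 (0.36), without 10% replicate 1 (0.38) or 2 (0.30), and without the arrays of highest cortical signal (0.27). The list mean was 0.14, 0.24 and −0.03 in the 3 arrays of 10%, and the median was 0.06 without replicate 2, 0.22 without replicate 3 and 0.03 without the arrays of highest cortical signal. Of 75 histone genes, 49 had a higher mean, with a median of 0.09, or 0.06 without 10% replicate 3. An unadjusted p under 0.05 was found in 3 higher and 0 lower ones, 4.0% against 3.79% of all symbols. The histone list mean was 0.14, 0.01 and 0.07 in 10% against −0.02, −0.01 and 0.03 in vehicle. Replicate 2 of 10% thus lay within the vehicle range. Antigen presentation genes had 11 higher and 3 lower means of 15 and 0 unadjusted p under 0.05, and their median of 0.09 was 0.00 without 10% replicate 1, 0.19 without 10% replicate 2 and 0.14 without 10% replicate 3. The mitochondrial ribosomal proteins, 35 higher and 39 lower, did not lean.

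**Figure D4:**
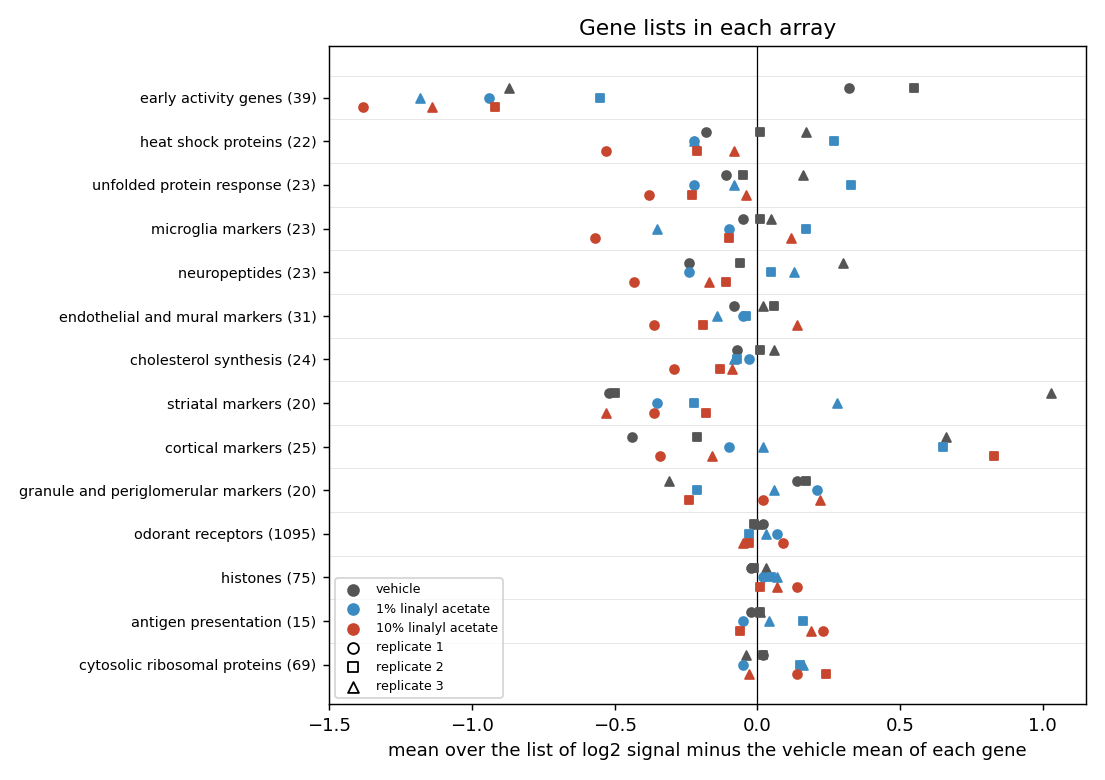
Mean over each gene list of the log2 signal minus the vehicle mean of each gene (horizontal axis) in the 9 arrays, with colours for groups, symbols for replicate numbers and the number of genes in brackets. The early activity genes stood between −1.38 and −0.92 in 10% while vehicle replicate 3 stood at −0.87, and for heat shock, unfolded protein response, microglia and vascular genes 10% replicate 1 stood lowest.

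Clock genes differed in both directions. Of 23, 10 had a higher and 12 a lower mean, with a list median of −0.01. An unadjusted p under 0.05 was found in 3 and 2 of them, 21.7% against 3.79% of all symbols, in a list chosen with earlier results known. Ciart, a repressor of the CLOCK and BMAL1 activators, read 7.33, 7.47 and 7.83 in vehicle, 8.36, 8.66 and 8.16 in 1% and 8.32, 8.61 and 7.93 in 10%, a difference of 0.74 ± 0.22. Nr1d1, the repressor REV-ERB alpha, read 9.93, 10.44 and 10.36, then 10.78, 11.18 and 10.91, then 10.80, 10.96 and 10.73, a difference of 0.59 ± 0.19. In both genes every exposed array exceeded every vehicle array, and neither difference lost its unadjusted p under 0.05 without any 1 array. Nfil3, a repressor that opposes the activators of D-box genes, read 7.79, 7.88 and 6.92 in vehicle, 6.44, 6.85 and 6.96 in 1% and 6.75, 6.80 and 6.71 in 10%, a difference of −0.78 ± 0.25. The 10% values of Nfil3 lay below the negative control medians. Arntl, which codes for BMAL1, read 10.42, 10.25 and 9.43 in vehicle and 8.78, 9.63 and 9.43 in 10%. Its difference of −0.75 ± 0.29 lost its unadjusted p under 0.05 without vehicle replicate 1 (−0.56) or 2 (−0.64) and without 10% replicate 1 (−0.50). The labels give no time of day for the sampling.

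The Ciart promoter is printed because it held 3 copies of the E-box that CLOCK and BMAL1 bind, searched as CACGTG on both strands and marked by capitals. The stretch is chr3:95882251-95882360 on the minus strand, and the matches start 116, 58 and 44 bases before the gene start.
Ciart: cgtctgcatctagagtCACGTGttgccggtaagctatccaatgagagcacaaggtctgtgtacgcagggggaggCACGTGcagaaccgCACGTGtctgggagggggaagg
The E-box was found in 5 of 18 clock gene promoters (27.8%), in 26.7% of early activity gene promoters and in 9.19% of all. The clock genes that hold it were Ciart, Bhlhe41, Cry1, Per1 and Tef, of which 4 had a higher mean in 10%. Per1, also an early activity gene, stood at −0.54.

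Glucocorticoid response genes were evenly split, with 12 higher and 12 lower means, 3 unadjusted p under 0.05 each way and a median of 0.01. Besides Fkbp5, the higher genes were the receptor gene Nr3c1, at 0.53 ± 0.23 and at 0.27 without 10% replicate 2, and the metallothionein Mt2, at 0.52 ± 0.22. Mt2 was 0.32 without vehicle replicate 3, and its p was also lost without vehicle replicate 2 (0.52), without 10% replicate 3 (0.40), and without the arrays of highest cortical signal (0.38). The lower ones were Dusp1, Cdkn1a, an inhibitor of the cell cycle, at −0.94, and Plin4 at −0.40. The Nr3c1 p was also lost without vehicle replicate 1 (0.41) or 2 (0.56). Cdkn1a was −0.41 without vehicle replicate 2 and −1.43 without vehicle replicate 3, and its p was also lost without vehicle replicate 1 (−0.98) and without 10% replicate 1 (−0.85) or 2 (−0.85). The Plin4 p was lost without vehicle replicate 2 (−0.27) and without 10% replicate 2 (−0.35) or 3 (−0.40).

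The genes that detect odours lay evenly on both sides. Of 1095 odorant receptor genes, 549 had a higher and 540 a lower mean in 10%, with a median of 0.00. An unadjusted p under 0.05 was found in 22 and 27 of them, 4.47% against 3.79% of all symbols. Their median level was 4.46 log2 units, below the negative controls. Of 306 vomeronasal receptor genes, 143 were higher and 162 lower, with a median of −0.03. The 24 markers of olfactory sensory neurons had 12 higher and 11 lower means and the 20 granule and periglomerular markers 10 and 10, with medians of 0.01 and −0.01 and 0 unadjusted p under 0.05 in either list. Enzymes that act on volatile and foreign compounds had 23 higher and 23 lower means, and cytokine and acute phase genes 15 and 11 of 26.

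The largest differences upward were in secreted proteins of nasal tissue and came from 2 of the 3 arrays of 10%. Obp2a, an odorant-binding lipocalin, read 7.01, 4.34 and 4.76 in vehicle, 8.56, 6.01 and 10.39 in 1% and 5.48, 12.35 and 11.80 in 10%. Replicates 2 and 3 of 10% were high and replicate 1 lay among the vehicle arrays, so the groups overlap despite a mean difference of 4.51 ± 1.60. Its unadjusted p under 0.05 was lost without vehicle replicate 2 (3.99), without 10% replicate 2 (3.27) or 3 (3.54), and without the arrays of highest cortical signal (2.96). Lcn11, another lipocalin, read 3.75, 3.94 and 4.12 in vehicle, 5.58, 4.24 and 6.69 in 1% and 4.05, 7.64 and 6.62 in 10%. Its 2.17 ± 0.78 was 1.40 without 10% replicate 2 and 1.91 without replicate 3, in both cases without that p, as it was without the arrays of highest cortical signal.

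Obp2b, a further odorant-binding lipocalin, had groups that were apart. It read 4.71, 3.92 and 4.69 in vehicle, 5.26, 4.31 and 4.90 in 1% and 4.82, 8.18 and 7.62 in 10%. The margin was 0.11 for replicate 1 and the difference 2.43 ± 0.67. The vehicle arrays and 10% replicate 1 lay below the negative control medians, where such a margin cannot be read. Mup4, Obp1a and Obp1b, named after their values were seen, followed the same arrays: Obp1a read 5.72, 5.32 and 5.36 in vehicle, 8.41, 5.35 and 10.41 in 1% and 5.57, 10.15 and 9.84 in 10%. In 1% too, replicates 1 and 3 were high in Mup4, Obp1a and Obp1b, replicate 3 above replicate 1, whereas Obp2b reached only 5.26 there. Vehicle values of Mup4, Obp1a and Obp1b lay below the negative control medians. Mup4, a major urinary protein, differed by 3.40 ± 1.39, Obp1a by 3.05 ± 1.25 and Obp1b by 3.04 ± 1.34. Without 10% replicate 1 these became 5.23, 4.53 and 4.65. Without 10% replicate 2 they were 2.51, 2.24 and 2.20 and without replicate 3 they were 2.45, 2.39 and 2.26, with unadjusted p above 0.05. Leaving out a vehicle array took the p of Obp1a and Obp1b above 0.05 for each of the 3, at 2.81 to 3.18, and that of Mup4 for vehicle replicates 2 (3.05) and 3 (3.27).

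These genes fall into neighbouring groups in the RefSeq annotation. Obp2a, Obp2b and Lcn11 lie on chromosome 2 with 1 gene between each pair, and Obp1a and Obp1b lie together on chromosome X. Of the 17 genes past the authors' criterion on the higher side (0.0796% of genes), 12 exceeded every vehicle array and 10% replicate 1 by more than 1 log2 unit in 10% replicates 2 and 3, the 1% arrays left aside, and 6 were on the list of 27 nasal proteins. Groups were apart in 3 of the 27: Obp2b and Mup6 were higher and Bpifb2 was lower. Mup6 and Bpifb2 were named after their values were seen. That list as a whole had 16 higher and 11 lower means and a median of 0.11, which became 0.66 if vehicle replicate 1 was dropped, 0.28 if 10% replicate 2 was and 0.04 if 10% replicate 3 was. Its means by array were −0.14, 1.14 and 1.48 in the 3 arrays of 10% against 0.62, −0.55 and −0.07 in vehicle and 0.56, −0.39 and 1.23 in 1%. The part of nasal tissue or RNA in the samples was not tested. Markers of olfactory sensory neurons stood at a median difference of 0.01.

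A zinc finger gene and a protease gene split the arrays of 10% in the same way and were named after their values were seen. Zfp125 read 6.14, 6.28 and 6.67 in vehicle, 6.71, 6.16 and 6.88 in 1% and 6.07, 9.88 and 9.77 in 10%, so replicates 2 and 3 stood about 3 log2 units above every other array. Its difference of 2.21 ± 0.78 was 3.46 without replicate 1, and 1.56 and 1.61, with an unadjusted p above 0.05, without replicates 2 and 3. Prss22, a serine protease, was the reverse: 8.51, 8.67 and 7.79 in vehicle, 3.93, 8.20 and 7.76 in 1%, and 8.26, 3.93 and 4.53 in 10%. Its values lay in 2 ranges, near 4 and near 8, with 1% replicate 1 and 10% replicates 2 and 3 in the lower one. Such an arrangement gave a mean difference of −2.75 ± 1.16 with overlapping groups, and of −4.09 without 10% replicate 1. Its unadjusted p under 0.05 was lost without 10% replicate 2 (−1.93) or 3 (−2.23) and without vehicle replicate 1 (−2.66) or 2 (−2.58).

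**Figure D5:**
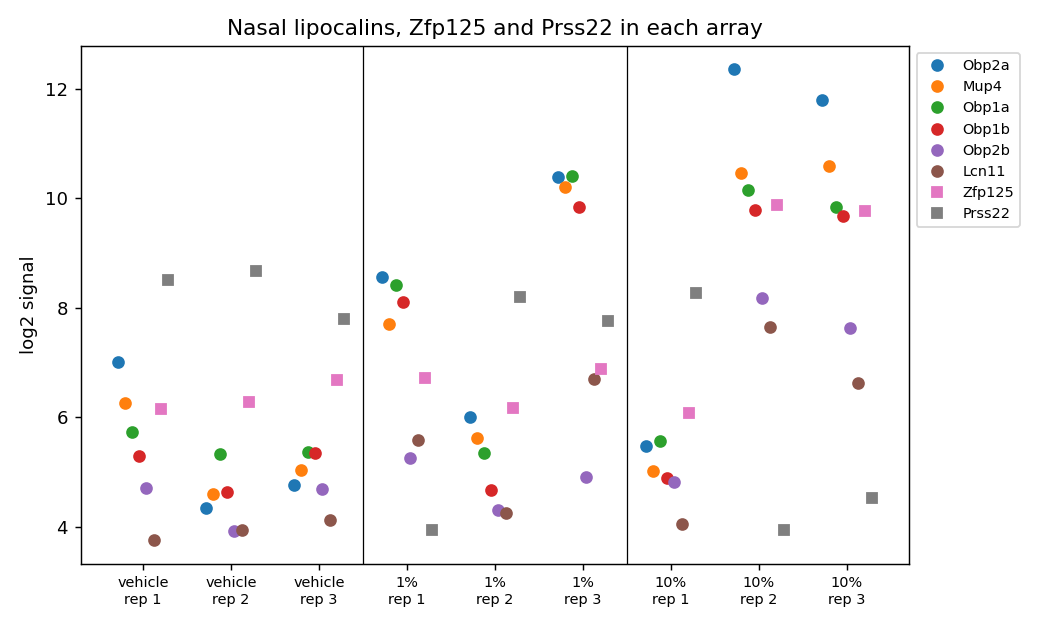
Log2 signal (vertical axis) of 6 nasal lipocalins, Zfp125 and Prss22 in the 9 arrays, 1 point per gene and array. In 10% replicates 2 and 3 the lipocalins and Zfp125 stood high and Prss22 low, whereas 10% replicate 1 resembled the vehicle arrays.

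On the lower side of the authors' criterion stood 25 probe sets (0.117%), of which 20 were of early activity genes and 5 were not: Cyr61, Kitl, Prss22, Glra4, a glycine receptor subunit, and a predicted gene. The Glra4 value of −1.09 was −0.65 without 10% replicate 1, and its unadjusted p under 0.05 was also lost without 10% replicate 2 (−1.02) and without vehicle replicate 1 (−0.95) or 2 (−0.78). The 10% signals of Glra4 lay below the negative control medians, as did those of vehicle replicates 1 and 3. Groups were apart in 14 of the 25, 12 of them of early activity genes, and in 5 of the 17 on the higher side. These 12 exceed the 11 genes of the list by Egr3, whose probe set here is not its brightest, the one the list used, in which the groups overlapped. In the authors' deposited table the same criterion took 45 genes, 17 higher and 28 lower, of which 34 were shared with the fit used here.

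Whether 10% differed from 1% was tested in the same fit. In limma 0 of 21367 genes passed the adjustment, with a lowest adjusted p of 0.999, and 642 (3.0%) had an unadjusted p under 0.05. Of the genes described above, that p was under 0.05 for Ifit3b, Postn, Perm1, Nvl, Hist1h4c, Higd1b, Obp2b, Zfp125, Pot1a, Coq10b, AI464131, Cyr61, Arxes2, Xbp1 and Tac2. In Hist1h4c the 1% arrays were the higher ones, and in the others 10% lay farther from vehicle. Most of these genes were named because their 10% arrays lay beyond all vehicle arrays. That choice favours 10% lying farther from vehicle than 1%, so this order shows no dependence on dose. Both exposed groups share the 3 vehicle arrays as their reference.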

How the data were processed

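Olfactory bulbs of 9 mice or pools, 3 in each of 3 groups, were read on Clariom S mouse arrays. The deposited signals are log2 values that the authors made with RMA in Transcriptome Analysis Console 4, per the submitters' processing notes, and are rounded to 2 decimals. The probe annotation's genome build was not given in the sources used here. In 1 array, 27 values stored as calendar dates were decoded, after which the table lay within 0.0714 of the log2 values of the deposited series matrix, used as an alternative. Of 22206 probe sets, 836 with several symbols and 3 with none were left out. No depth exists for arrays, and the number of arrays limits the precision.

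limma 3.58.1 in R 4.3.3 fitted a means model to all 9 arrays with empirical Bayes moderation, 6 residual and 5.27 prior degrees of freedom and a median SE of 0.21. P-values were two-sided and adjusted by Benjamini-Hochberg over 21367 probe sets. The step was checked on simulated data. Differences are on the log2 scale. The authors' deposited table gives a signed fold score and p-values of their own limma model, and its criterion was counted beside the fit. The p-values in that deposited table reach no lower than 0.9997 after adjustment.

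Genes named were, in each direction, up to 15 by difference and 8 by gap among genes with groups apart, an unadjusted p under 0.05 and a level of at least the median of all genes (6.94 log2 units), 6 early activity genes, up to 4 members per list by p, and the 5 highest and 5 lowest families. Exceptions are named as such. Symbols of predicted genes were counted and not named. Members and lists were chosen with earlier results of these data known. Promoters were from RefSeq (GRCm38.p6), matched for 16216 symbols. Alternatives left out arrays, changed the normalization, the moderation, the filter on dim genes, the probe sets or the covariates.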

Additional observations from a re-analysis of the deposited data

How the results depend on the processing

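No named gene with an unadjusted p under 0.05 changed direction under any alternative run. Medians of some lists and families did change direction, such as those of the striatal, cortical and microglia markers, as given above. The count of genes past the adjustment was 0 for 10% against vehicle. It ranged from 0 to 12 with 1 array left out and was 12 without the 3 arrays of highest cortical signal, again all early activity genes and all lower. For 10% against 1% it was 0 and ranged from 0 to 2 with 1 array left out. The authors' criterion took 42 genes, 30 to 81 with 1 array left out, 91 without the arrays of highest cortical signal and 25 with robust moderation. An unadjusted p under 0.05 was found in 807 genes, in 684 to 1530 with 1 array left out and in 440 once dim genes were removed, where fewer were tested. Groups were apart in 1595 genes, in 3171 to 4553 with 1 array left out and in 6861 without the arrays of highest cortical signal, where fewer arrays have to separate, and in 795 once dim genes were removed. Over the named genes 3403 values under an alternative kept their direction and their side of an unadjusted p of 0.05. A p under 0.05 was lost in 254 and gained in 162. Another 12 changed direction, all of genes without such a p in the main fit. Of list medians, 851 moved by less than the spread of the list mean between arrays and 10 by more. That spread was the larger of the standard deviations over the vehicle arrays and over the 10% arrays, a wide limit where either group was spread out. On the given strand alone, the endoplasmic reticulum stress element was found in 6 of 21 promoters (28.6%) against 0.111%, and the interferon element in 5 of 24 (20.8%) against 1.96%.

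Replicate numbers in the titles do not pair the samples: deviations of vehicle and 10% arrays of the same number correlated at 0.062, −0.157 and −0.161 over all genes. With the replicate block 0 genes passed the adjustment, 45 the criterion and 790 an unadjusted p under 0.05.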
